A study of Mus musculus with 109 samples.

Results

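Ccr2, Itgal, Ly6c2, Plac8, Ms4a4c, Chil3, Msr1 and Thbs1 are 8 mouse genes that were put together by symbol as genes of monocytes that enter an inflamed retina. They were found by their Ensembl identifiers in a table of read counts for 37315 genes, all 8 were present, and they are followed here through every treatment, day and genotype of the study.

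Classical monocytes are made in the bone marrow, circulate in blood, stick to activated vessel walls, follow chemokines into tissue and turn there into macrophages. A healthy retina has microglia as its own macrophages and a barrier of tight vessels that lets few blood cells through. Of the 8 genes, Ccr2 encodes the receptor for the chemokine Ccl2, and Itgal the alpha chain of LFA-1, an integrin of many leukocytes that binds Icam1 on vessels. Ly6c2, Plac8 and Ms4a4c encode small proteins known from blood monocytes, Chil3 a secreted chitinase-like lectin and Msr1 a scavenger receptor of macrophages. Thbs1 encodes thrombospondin 1, a secreted matrix protein that platelets, vessels and macrophages also make.

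The study injected the cytokines IL1A, TNF or both into the vitreous of the eye and sequenced polyadenylated RNA of 109 whole retinas from 64 mice, 54 retinas from females and 55 from males. The study's methods give an injection of 2 μL after the vitreous was drained, with IL1A at 0.1 μg per μL and TNF at 0.05 μg per μL. The fellow eye received the buffer PBS, and the mice were aged 2 to 6 months. The methods list C57BL/6J mice and Sarm1 deficient mice separately. The genotypes here were wild type (WT) and lacking Sarm1. Both eyes were sequenced in 45 mice. The totals of counted read pairs ran from 30014757 to 79064488 per library with a median of 39374202, so that 1 count equalled between 0.0126 and 0.0333 CPM (counts scaled to equal library totals). The labels name 2 batches. Batch 1 held WT retinas: at day 2, 31 with PBS, 8 with TNF, 9 with IL1A and 10 with IL1A+TNF, together from 35 mice. Its later retinas were 7 with PBS and 6 with TNF at day 14, and 6 with PBS and 9 with TNF at day 35. Batch 2 was taken at day 2 and held 5 WT retinas with PBS, 6 WT with IL1A+TNF, 6 Sarm1KO (lacking Sarm1) with PBS and 6 Sarm1KO with IL1A+TNF. Age was given for the whole study and not for each mouse.

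In the mm10 (GRCm38) genome the 8 genes lie on 8 chromosomes. The genes known for entry from blood are Ccr2 (ENSMUSG00000049103) at chr9:124101950-124113557 and Itgal (ENSMUSG00000030830) at chr7:127296260-127335138. The genes of monocytes are Ly6c2 (ENSMUSG00000022584) at chr15:75108158-75111970, Plac8 (ENSMUSG00000029322) at chr5:100553725-100572245 and Ms4a4c (ENSMUSG00000024675) at chr19:11404770-11427246. The genes of macrophage function are Chil3 (ENSMUSG00000040809) at chr3:106147554-106167564, Msr1 (ENSMUSG00000025044) at chr8:39581685-39642673 and Thbs1 (ENSMUSG00000040152) at chr2:118111876-118127133. Thbs1 shares 208 exon bases with Gm29233 and Ms4a4c 28 with Gm5692, each on the opposite strand, and the other 6 share none with another gene.

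Several libraries stood apart, and some of the results that rest on them are given with and without them. The correlations over all day 2 retinas of batch 1 are given only with them. TNF replicate 6 of day 2 had 0.0615 CPM of Ccr2, which is 2 counts, where the other 7 TNF retinas had 7.83 CPM or more. The PBS eye of the same mouse, PBS replicate 17, had the highest Ccr2 (16 CPM) and the highest Ms4a4c (1.21 CPM) of the 31 PBS retinas, and all 8 genes were higher in it than in TNF replicate 6. In the other 7 mice with a TNF eye Ccr2 was higher in the TNF eye. Its Msr1 (1.68 CPM) was near the PBS median and its Thbs1 (9.55 CPM) below it. The labels of both eyes were used as given and were not tested. IL1A+TNF replicate 2 of batch 1 was the highest of its group for Ccr2, Itgal, Ly6c2, Plac8, Ms4a4c, Chil3 and Msr1. Its summed neutrophil markers, at 1129 CPM, were the highest of that group too, where the next retina had 783.2 CPM. Sarm1KO PBS replicates 1 and 2 had 12.2 and 18.2 CPM of Ccr2, above the other 4 retinas of their group. Sarm1KO IL1A+TNF replicates 4 and 5 had the 2 highest values of Thbs1 in the study, and in them Ly6c1, a gene of endothelium, was at 1.89 and 0.594 CPM. Sarm1 itself followed the genotype labels. It was measured at 107 to 124 CPM in the 5 WT PBS retinas of batch 2 and at 87.3 to 114 CPM in the 6 WT IL1A+TNF retinas. The Sarm1KO retinas had less, 37.4 to 53.2 CPM with PBS and 28.8 to 46.5 CPM with IL1A+TNF, and the genotypes did not overlap.

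The label of infiltrating monocyte genes was not tested, and the genes are called by their names. Other genes listed for classical monocytes were higher with IL1A+TNF at day 2 in 20 of 21 tested, where 24.9% of all tested genes were. That list is not particular to monocytes. It shares Ly6c1 with the endothelial markers and F13a1 with those of border-associated macrophages. Ly6c2, the gene of the surface protein that defines classical monocytes, reached 1 CPM in 1 of 109 retinas and was at 0 counts in 25 of them. Thbs1 had at least 4.37 CPM in every retina, including all PBS retinas of day 35. Genes of other blood cells moved with the list. Of 15 neutrophil markers, 12 could be tested, and 9 of them were higher with IL1A+TNF at day 2 and 10 with IL1A, where 12% of all tested genes were. Their summed level had a median of 37.2 CPM in PBS retinas, 47.1 with TNF, 240.1 with IL1A and 295.8 with IL1A+TNF. Their most abundant gene with IL1A+TNF was Csf3r at a mean of 150.9 CPM. The markers Ly6g, Mpo and Elane had means under 0.1 CPM in every group. What part neutrophils or other cells had in the values of the 8 genes was not tested, and in a bulk retina more cells of a type and more RNA per cell cannot be told apart.

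Ly6c2 and Chil3 each have a close copy on the same chromosome. The coding sequence of Ly6c2 differs from that of Ly6c1 at 9 of 396 bases (97.7% identity), and 46.7% of its 50-base windows, or 5.8% of the 150-base windows of its transcript, are found unchanged in Ly6c1. Chil3 and Chil4 differ at 56 of 1197 aligned coding bases (95.3% identity), and no 150-base window of Chil3 is shared. Ly6c1 had a median of 9.05 CPM in the day 2 PBS retinas against 0.113 CPM for Ly6c2, and Chil4 was at or near 0 in all groups, with 0.0231 CPM as its highest value. The starts of the coding sequences are shown because they let the reader see how alike the copies are. They come from the GENCODE M21 transcripts of GRCm38, 120 bases each on the minus strand, at chr15:75110578-75111667 for Ly6c2, chr15:75047420-75048511 for Ly6c1, chr3:106164227-106167521 for Chil3 and chr3:106214412-106219464 for Chil4, each spanning at least 1 intron. Capitals mark the 6 bases that differ in the first set and the 3 that differ in the other.
Ly6c2: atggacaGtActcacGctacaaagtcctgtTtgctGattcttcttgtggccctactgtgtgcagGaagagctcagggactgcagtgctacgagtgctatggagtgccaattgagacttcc
Ly6c1: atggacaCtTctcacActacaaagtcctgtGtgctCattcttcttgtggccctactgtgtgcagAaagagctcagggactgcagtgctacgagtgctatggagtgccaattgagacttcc
Chil3: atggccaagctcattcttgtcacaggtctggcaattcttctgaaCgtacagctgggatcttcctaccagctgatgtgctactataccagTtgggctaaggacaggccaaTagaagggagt
Chil4: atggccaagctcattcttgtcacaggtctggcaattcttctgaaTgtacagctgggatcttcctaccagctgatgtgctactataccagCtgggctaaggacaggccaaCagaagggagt

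The central question is whether retinas injected with the cytokines carry more of these transcripts 2 days later than their PBS controls. With IL1A+TNF all 8 genes rose, with Chil3, Ccr2 and Msr1 moving most, and Ccr2 went from a median of 3.51 CPM to 36.0 CPM.

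Ccr2, the Ccl2 receptor, had a lowest, median and highest value of 0.269, 3.51 and 16 CPM in 31 PBS retinas and of 28.5, 36.0 and 65.7 CPM in 10 IL1A+TNF retinas. Every IL1A+TNF retina was above every PBS retina. The means stood 7.34-fold apart, and the fitted log2 difference was 3.32 (SE 0.464, adjusted p 1.71e-08). In the 8 mice with both eyes, Ccr2 was higher in the injected eye 8 times, by a median ratio of 8.89. Of the other genes, Itgal, Chil3 and Msr1 were higher in 8 of the 8, Ms4a4c and Thbs1 in 7, Plac8 in 6 and Ly6c2 in 5.

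Itgal, the LFA-1 chain, had 0.484, 1.31 and 4.68 CPM with PBS and 5.33, 6.86 and 19.7 CPM with IL1A+TNF. Again no retina of the groups overlapped. The log2 difference was 2.41 (SE 0.193, adjusted p 6.42e-16). Leaving out replicate 2, whose 19.7 CPM was far above the next value, gave 2.30.

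Ly6c2, Plac8 and Ms4a4c, known from blood monocytes, were low and overlapped with the controls. Ly6c2 had 0, 0.113 and 0.533 CPM with PBS and 0.0512, 0.209 and 0.759 CPM with IL1A+TNF, so that 1 retina of 10 lay above the PBS range. Its log2 difference of 1.02 (SE 0.441) only just passed, with an adjusted p of 0.0479. It no longer passed with edgeR (0.119) or DESeq2 (0.115), both without the mouse as a block, nor in limma without that block. The call was also lost when IL1A+TNF replicate 1, 2, 3, 4, 6, 7 or 10 was left out (0.057 to 0.131, log2 differences 0.84 to 1.04). Plac8 had 0.0487, 0.391 and 1.56 CPM with PBS and 0.555, 0.973 and 5.07 CPM with IL1A+TNF. All 10 retinas were above the PBS median and 2 above the PBS range, and the log2 difference was 1.20 (SE 0.362, adjusted p 0.00429). Ms4a4c had 0.0538, 0.371 and 1.21 CPM with PBS and 0.578, 0.850 and 1.55 CPM with IL1A+TNF. Here 3 of 10 retinas were above the PBS range, and the log2 difference was 1.28 (SE 0.324, adjusted p 0.00071).

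Chil3, the lectin, had 0, 0.401 and 1.95 CPM with PBS and 2.15, 4.22 and 19.8 CPM with IL1A+TNF. The groups did not overlap, and the log2 difference was 3.64 (SE 0.459, adjusted p 1.17e-09). Msr1, the scavenger receptor, had 0.242, 1.54 and 5.36 CPM with PBS and 5.59, 10.1 and 31.2 CPM with IL1A+TNF. These groups did not overlap either, and the log2 difference was 2.90 (SE 0.263, adjusted p 4.68e-14).

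Thbs1, the matrix protein, had 6.75, 19.6 and 126.0 CPM with PBS and 26.5, 76.4 and 131.0 CPM with IL1A+TNF. It overlapped widely, with 12 of 31 PBS retinas above the lowest IL1A+TNF retina, and the log2 difference was 1.5 (SE 0.279, adjusted p 7.5e-06).

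All 8 genes were thus called higher with IL1A+TNF, where 50.4% of the 19548 genes tested were called in either direction and 24.9% were called higher, and the groups of 4 of them did not overlap. The median log2 difference was 1.96 over the 8 genes and -0.02 over all tested genes. Without IL1A+TNF replicate 2 the other 7 genes stayed called and Ly6c2 did not (0.84, adjusted p 0.131). With the mouse as a fixed block, which pairs the eyes, 6 of the 8 stayed called, and Ly6c2 (0.59, adjusted p 0.483) and Plac8 (1.19, adjusted p 0.0957) did not. That fit used 23 PBS and 8 IL1A+TNF retinas, so the block and the number of retinas changed together.

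**Figure D1:**
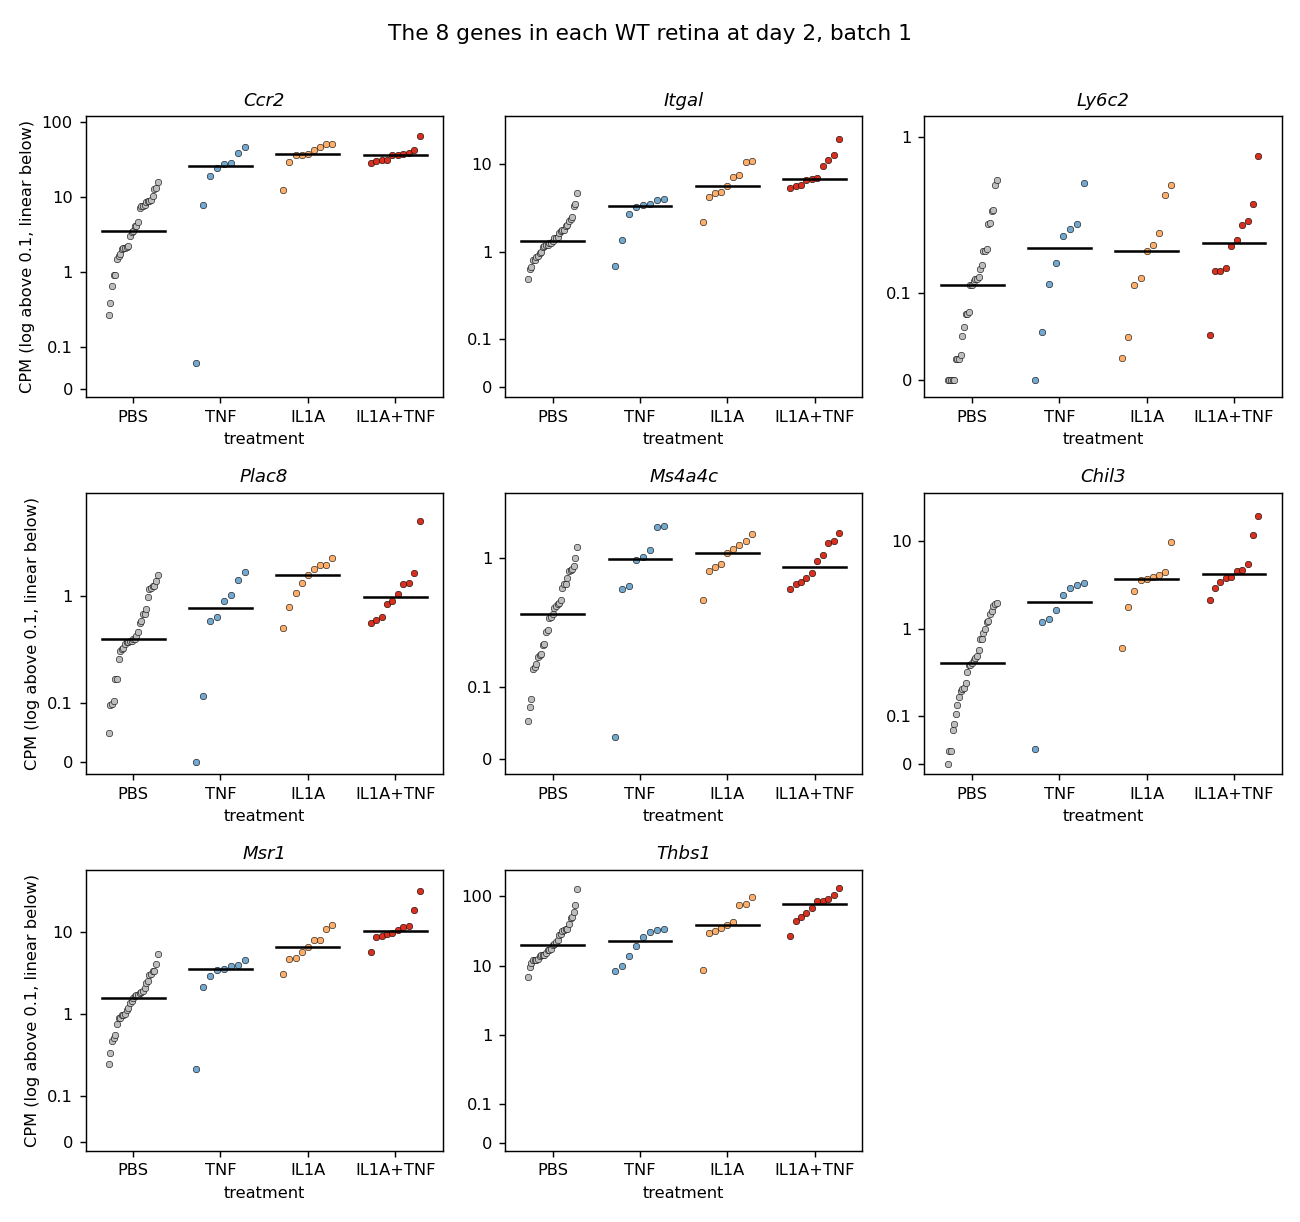
CPM of the 8 genes in each retina of batch 1 at day 2, 1 panel a gene, on a log axis, with a bar at the group median. The 31 PBS retinas lie below all 10 IL1A+TNF retinas for Ccr2, Itgal, Chil3 and Msr1, and TNF replicate 6 is the low point of the TNF group.

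IL1A by itself addressed which cytokine is enough. With IL1A 7 of the 8 genes rose (21.4% of tested genes called, 12% called higher), and the median log2 difference of the 8 was 1.85 against -0.01 over all genes. Ccr2 had 12.3, 37.8 and 51.4 CPM in the 9 IL1A retinas. All but 1 of them were above the PBS range, and the log2 difference was 3.34 (SE 0.471, adjusted p 9.38e-08). Itgal had 2.20, 5.66 and 10.8 CPM, with 7 of 9 retinas above the PBS range and a log2 difference of 2.06 (SE 0.209, adjusted p 1.28e-11). Msr1 had 3.05, 6.47 and 12 CPM, with 6 of 9 above the PBS range and a log2 difference of 2.19 (SE 0.29, adjusted p 2.09e-08). The other genes called were Plac8 at 1.65, Ms4a4c at 1.48, Chil3 at 3.14 and Thbs1 at 0.84 on the log2 scale. Ly6c2 had 0.025, 0.187 and 0.495 CPM with IL1A, inside the PBS range in all 9 retinas, and was not called (log2 difference 0.78, interval -0.193 to 1.75, adjusted p 0.279). The Thbs1 call (adjusted p 0.0372) was lost when IL1A replicate 1, 2, 4, 8 or 9 was left out (0.0514 to 0.14, log2 differences 0.69 to 0.84). It was also lost with edgeR (0.113) and with DESeq2 (0.125), both without the mouse as a block. With the mouse as a fixed block 4 of the 8 genes were called, and Plac8 (1.36, adjusted p 0.157), Ms4a4c (1.28, adjusted p 0.117) and Thbs1 (0.82, adjusted p 0.196) were not. That fit used fewer retinas, 23 with PBS and 7 with IL1A.

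TNF by itself gave a result that depended on 1 retina and on the kind of fit. With all 8 TNF retinas limma called 0 of the 8 genes (0.655% of tested genes called), although 5 had an unadjusted p under 0.05. edgeR called 3 (Ccr2, Ms4a4c and Chil3) and DESeq2 called 2 (Ccr2 and Ms4a4c), both without the mouse as a block. A fit with the mouse as a fixed block pairs the eyes and used all 8 TNF retinas with 23 PBS retinas. In it limma called Ccr2, with a larger log2 difference, and no other of the 8. Ccr2 had 27.6, 24.4, 7.83, 28.4, 46.3, 0.0615, 38.0 and 19 CPM in TNF replicates 1 to 8. Of these, 6 lay above the PBS range and replicate 6 lay below the lowest PBS retina. In the main limma fit the log2 difference of Ccr2 was 1.89 (SE 0.562, interval 0.763 to 3.01, adjusted p 0.125).

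Without TNF replicate 6, singled out after seeing the data from a round that left out each of the 8 TNF retinas, 5 of the 8 genes were called, all higher (2.19% of tested genes called, 2.07% called higher). They were Ccr2 at 2.89 (SE 0.321, adjusted p 1.03e-08), Chil3 at 2.55 (adjusted p 0.000176), Ms4a4c at 1.57 (0.000146), Msr1 at 1.33 (0.00554) and Itgal at 1.18 (0.000557). Ly6c2 (1.15, adjusted p 0.339), Plac8 (0.90, adjusted p 0.378) and Thbs1 (-0.02, adjusted p 0.997) were not. Replicate 6 was also the lowest TNF retina for Itgal, Ly6c2, Plac8, Ms4a4c, Chil3, Msr1 and Thbs1, and its summed neutrophil markers (22.1 CPM) and summed microglial markers (35.3 CPM) were the lowest of the TNF group too. Why it is low was not tested. Without both eyes of its mouse, TNF replicate 6 and PBS replicate 17, the same 5 genes were called (2.31% of tested genes called), with Ccr2 at 2.98 (adjusted p 4.89e-09). In that fit, also added after seeing the data, all 8 genes stayed called with IL1A+TNF and 7 with IL1A.

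The comparisons of TNF, IL1A and IL1A+TNF with PBS share the 31 PBS retinas, so their values stand side by side and are not independent of each other. For Ccr2 the log2 differences were 1.89, 3.34 and 3.32, and for Msr1 they were 0.86, 2.19 and 2.90.

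**Figure D2:**
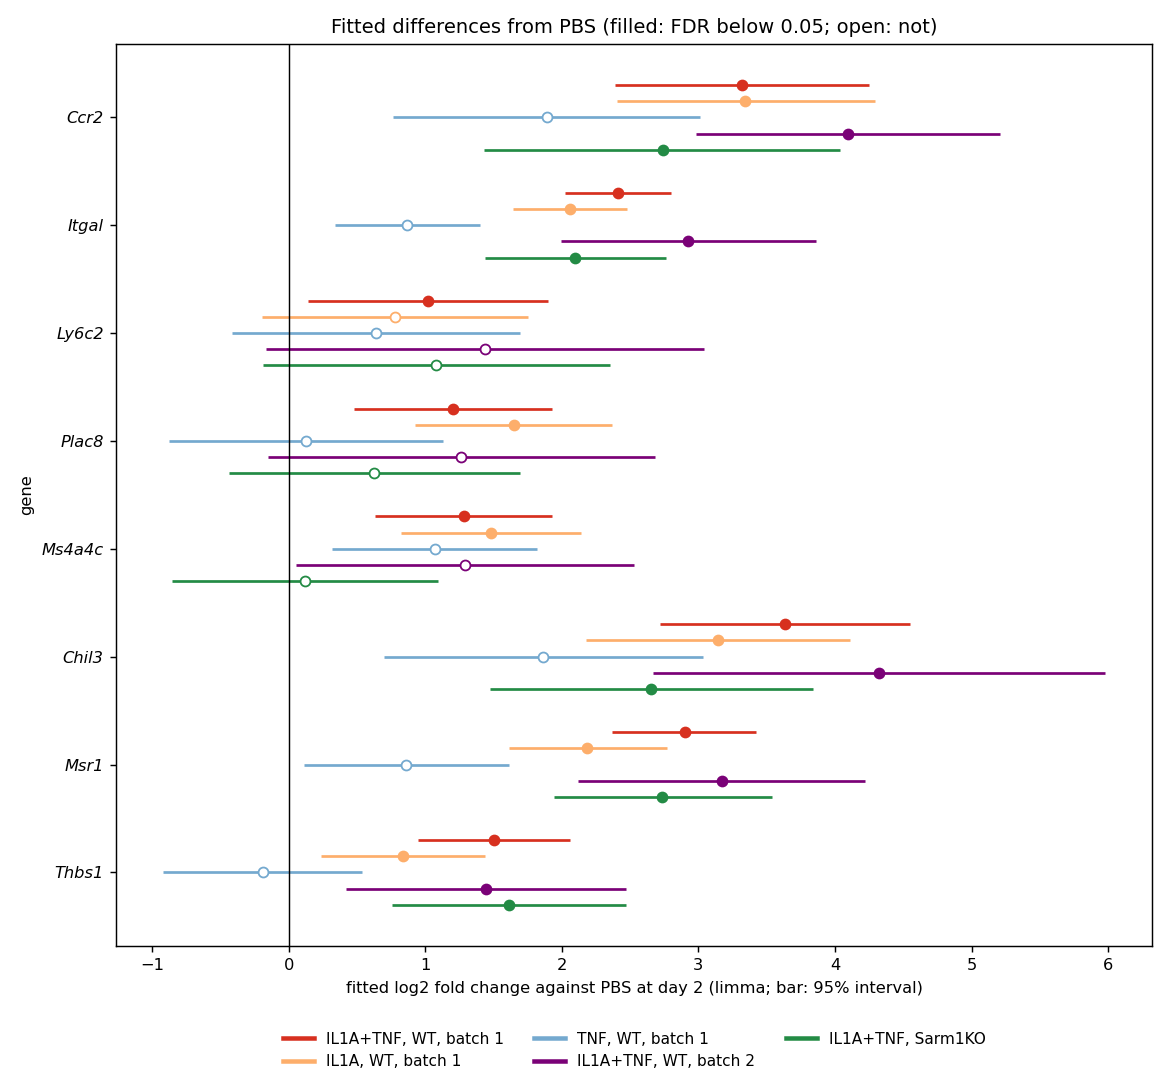
Fitted log2 differences of the 8 genes with 95% confidence intervals in 5 comparisons, with filled points for an adjusted p under 0.05. In WT retinas of batch 1 every interval for IL1A+TNF lies above 0, as do 7 of 8 for IL1A. With IL1A+TNF the intervals of Ly6c2 and Plac8 reach below 0 in WT of batch 2. In Sarm1KO those of Ly6c2, Plac8 and Ms4a4c do.

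The treated groups were also compared with each other. Between IL1A+TNF and IL1A limma called 0 of the 8 genes (10.1% of tested genes called), 1 had an unadjusted p under 0.05, and edgeR and DESeq2 also called 0. That gene was Msr1, with a log2 difference of 0.71 (SE 0.283, interval 0.146 to 1.28, adjusted p 0.0966), 9 of 10 IL1A+TNF retinas above the IL1A median and 2 above the IL1A range. Ccr2 showed a difference of -0.02 with an interval of -0.914 to 0.865.

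Between IL1A+TNF and TNF, 5 of the 8 genes were called higher (39.0% of tested genes called, 20% called higher): Msr1 at 2.04, Chil3 at 1.77, Thbs1 at 1.70, Itgal at 1.54 and Ccr2 at 1.43. For Itgal and Msr1 every IL1A+TNF retina was above every TNF retina. Without TNF replicate 6 there were 4 (33.4% of tested genes called), since Ccr2 stood at 0.39 with an adjusted p of 0.361. Between IL1A and TNF, 2 of the 8 were called higher, Itgal and Msr1 (9.08% of tested genes called, 5.39% called higher). Without TNF replicate 6, Itgal was called and Msr1 was not (0.88, adjusted p 0.126, with 4.52% of tested genes called). With all TNF retinas, edgeR and DESeq2, both without the mouse as a block, each called fewer of the 8 than limma.

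The interaction of IL1A and TNF asks whether the log2 difference with both cytokines departs from the sum of the separate ones, and a negative value means less than the sum. limma called 0 of the 8 genes (3.6% of tested genes called), 2 had an unadjusted p under 0.05, and edgeR and DESeq2 each called Ccr2. The limma value for Ccr2 was -1.91 (SE 0.712, adjusted p 0.121). Without TNF replicate 6, Ccr2 (-2.96, SE 0.421, adjusted p 4.14e-05), Chil3 (-2.09, adjusted p 0.0333) and Ms4a4c (-1.78, adjusted p 0.00885) were called, where 3.31% of tested genes were. Without both eyes of that mouse the same 3 genes were called (3.59% of tested genes called), with Ccr2 at -3.04.

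Whether females and males differ in the response to IL1A+TNF was tested as an interaction. limma called 0 of 8 (0.0% of 20188 tested genes), 0 had an unadjusted p under 0.05, and edgeR and DESeq2 also called 0. The intervals were wide, from -2.46 to 0.943 for Ccr2, for example, and leave the size of a difference between the sexes open.

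Levels per kilobase of exon show the order of the genes. With PBS at day 2 the means per kilobase were highest for Thbs1 (4.63 CPM per kb), then Ccr2 (0.757), Chil3 (0.384), Plac8 (0.352), Msr1 (0.274), Ms4a4c (0.246), Itgal (0.243) and Ly6c2 (0.0505). With IL1A+TNF the order was Thbs1 (12.2 CPM per kb), Ccr2 (5.55), Chil3 (3.84), Msr1 (1.98), Itgal (1.38), Plac8 (0.872), Ms4a4c (0.540) and Ly6c2 (0.0944). Ly6c2 was last in both groups, below its neighbour by more than the larger of their SDs between retinas. With IL1A+TNF the same held for Ccr2 below Thbs1, and all other neighbours in either order differed by less than that spread.

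Later time points ask how long the genes stay up after TNF and what the PBS retinas do. At day 14 limma tested 4 of the 8 genes and called 0 (0.0% of 18023 tested genes). Of the 4, Thbs1 had an unadjusted p under 0.05. Ccr2 had 0, 0.274 and 0.519 CPM in 7 PBS retinas and 0.230, 0.466 and 1.73 CPM in 6 TNF retinas, and 3 TNF retinas lay above the PBS range. Thbs1 had 6.94, 12.3 and 15.8 CPM with PBS and 11.1, 22 and 27.6 CPM with TNF, 4 of 6 above the PBS range, with a log2 difference of 0.80 (SE 0.198, interval 0.378 to 1.22, adjusted p 0.888). edgeR and DESeq2 also called 0 of the 8. Ly6c2, Plac8, Ms4a4c and Chil3 had too few counts to be tested.

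At day 35 limma tested Itgal and Thbs1 and called 0 (0.0% of 17821 tested genes), 0 had an unadjusted p under 0.05, and edgeR and DESeq2 also called 0 of the 8. Itgal had 0.212, 0.412 and 0.544 CPM in 6 PBS retinas and 0.135, 0.378 and 0.619 CPM in 9 TNF retinas, which overlapped. Thbs1 had a log2 difference of -0.34 (interval -0.771 to 0.1). Ccr2 had at most 0.0523 CPM with PBS and 0.187 CPM with TNF, and Ly6c2 and Chil3 were at 0 counts in 5 of 6 PBS retinas and 6 of 9 TNF retinas.

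PBS retinas differed strongly between days. Against day 2, 6 of the 8 genes were lower at day 14 (19.2% of 19372 tested genes called, 10.5% called lower) and 7 at day 35 (32.8% called, 17.4% called lower), and across the 3 days 7 of 8 were called (36.2% of tested genes). Other lists fell with them. At days 14 and 35, 11 and 12 of 12 adhesion genes, 17 and 18 of 20 other genes of classical monocytes, 8 and 9 of 10 microglial markers, and 3 and 6 of 11 tested neutrophil markers were lower. The summed microglial markers had medians of 52.5, 29 and 20.9 CPM at days 2, 14 and 35, with Olfml3 as the most abundant, and the summed neutrophil markers 37.2, 18.4 and 21.2 CPM, with Mmp9 as the most abundant and Ly6g at 0 at both later days. Their part in the fall of the 8 genes was not tested. limma called Plac8 at neither day and did not call Thbs1 at day 14, while DESeq2 called Plac8 lower at both days (adjusted p 0.0236 and 0.0373), and edgeR and DESeq2 called Thbs1 lower at day 14 (0.0222 and 0.00713). Itgal had a median of 1.31 CPM at day 2, 0.366 CPM at day 14 and 0.412 CPM at day 35. At both later days every Itgal value was below the day 2 median, and it fell by 1.84 and 1.79 on the log2 scale. Msr1 had medians of 1.54, 0.228 and 0.123 CPM, did not overlap between days 2 and 35, and was called lower at both days, by 2.29 at day 14. Thbs1 had medians of 19.6, 12.3 and 7.99 CPM and fell by 1.45 at day 35. Ccr2, whose median was 3.51 CPM at day 2, 0.274 CPM at day 14 and 0.0271 CPM at day 35, was called lower at both days without overlap between days 2 and 35. In these later PBS retinas Ccr2 had 0 to 19 counts at day 14 and 0 to 2 at day 35, Msr1 had 2 to 8 at day 35, and Ly6c2, Ms4a4c and Chil3 had 0 to 6. With counts this low the fitted folds depend on the constant added to each count and are not given. Itgal, with 7 to 19 counts at day 14 and 9 to 21 at day 35, and Msr1 at day 14, with 5 to 26, are low too. At day 14, 2 of the 7 PBS retinas came from 1 mouse and entered as separate.

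**Figure D3:**
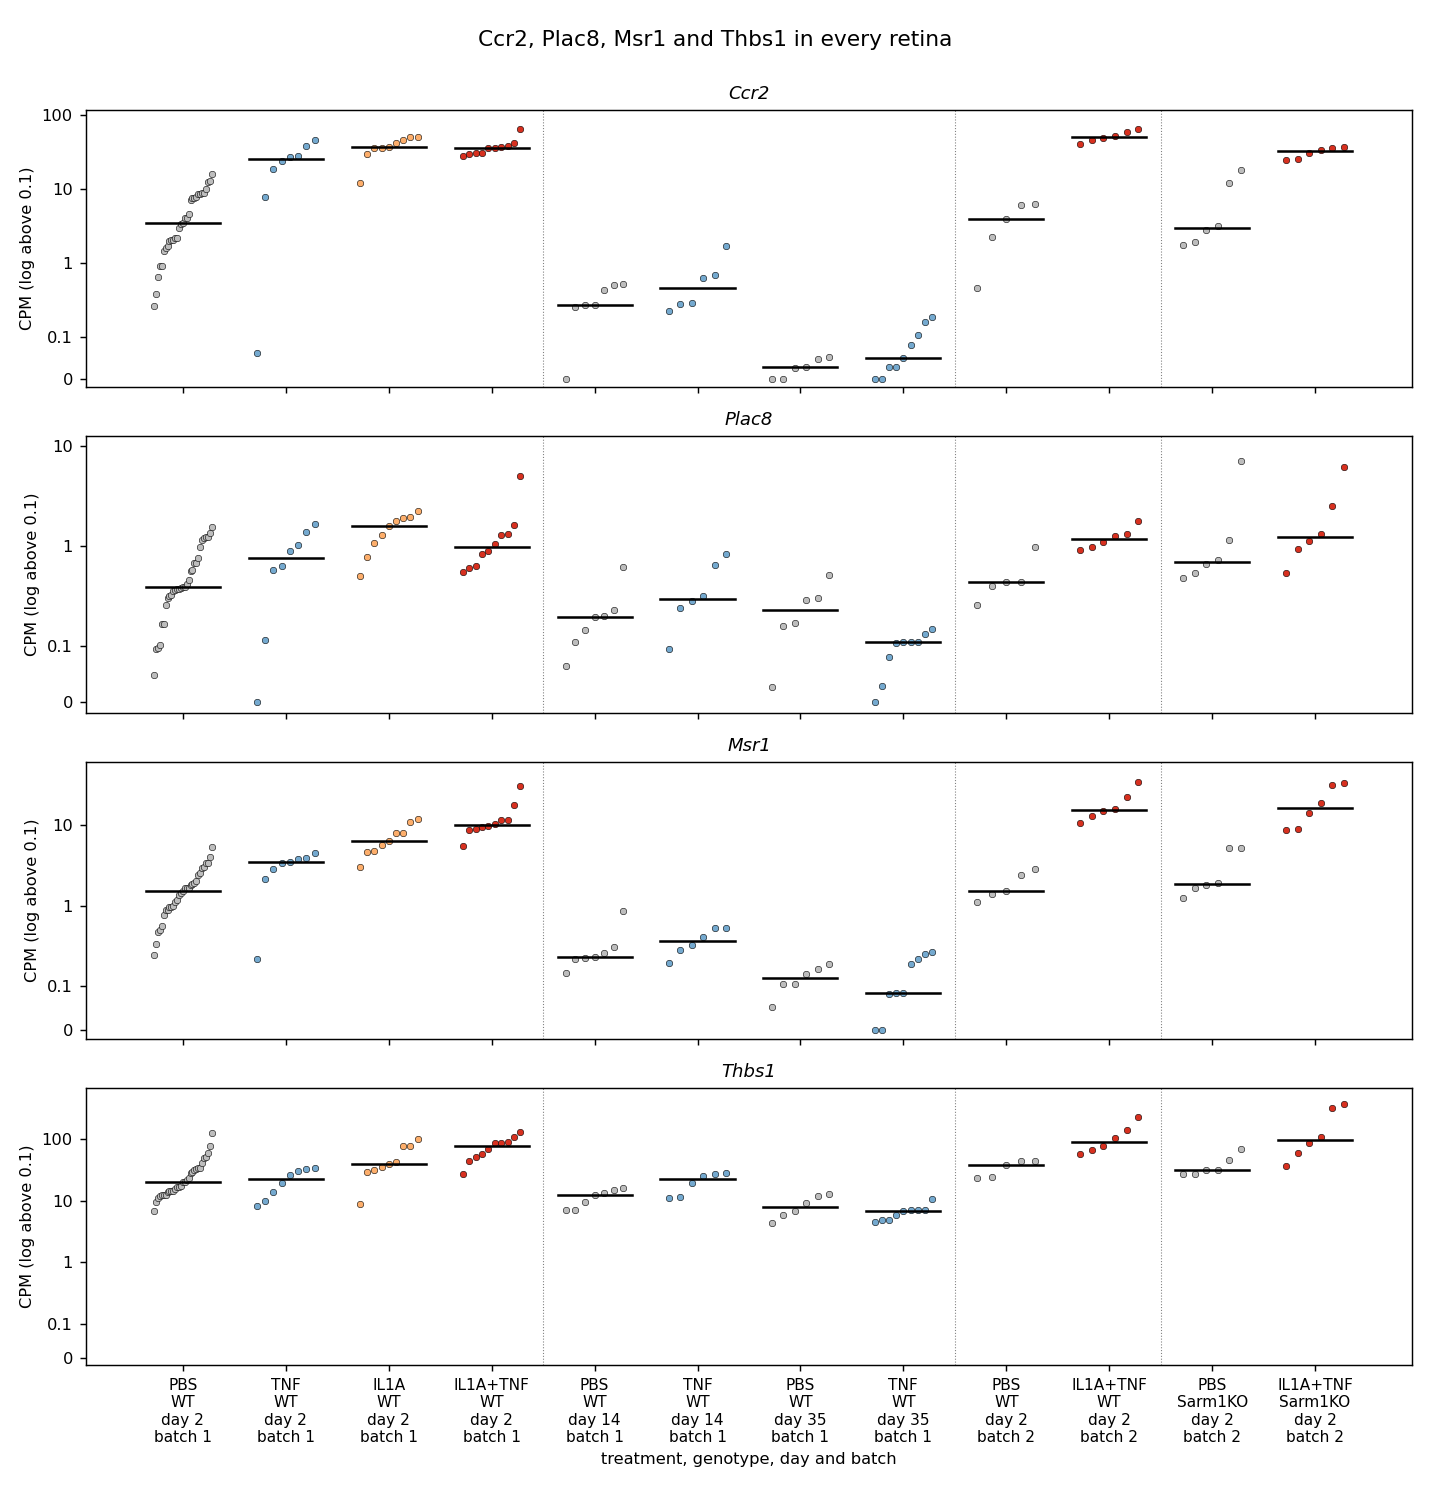
CPM of Ccr2, Plac8, Msr1 and Thbs1 in each retina of all 12 groups, on a log axis, with a bar at the group median. The PBS medians of Ccr2 fall from day 2 to day 14 and day 35, and the Sarm1KO PBS group has 2 retinas above its other 4.

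The day 2 PBS retinas were the fellow eyes of eyes given different cytokines, which was tested in 23 of them. By the treatment of the fellow eye, limma called 0 of 7 tested genes (0.0% of 18702), and 0 had an unadjusted p under 0.05. Ly6c2 was not tested. The difference in Ccr2 between fellows of IL1A+TNF and of TNF eyes was 0.59 with an interval of -0.801 to 1.99. The days were sampled in different mice, with TNF as the only cytokine of the fellow eye at days 14 and 35, so the day and what else differed between those mice cannot be told apart.

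Batch 2 asks whether the loss of Sarm1, an enzyme that drives the breakdown of injured axons, changes these genes. In WT mice of batch 2 alone, 5 of the 8 genes were higher with IL1A+TNF (20.9% of 19668 tested genes called, 13.3% called higher). They were Ccr2 at 4.09 (SE 0.535, adjusted p 2.34e-05), Itgal at 2.92, Chil3 at 4.32, Msr1 at 3.17 and Thbs1 at 1.45. None of these overlapped between 5 PBS and 6 IL1A+TNF retinas, and the share of all tested genes without overlap was not counted. Ly6c2 (1.44, adjusted p 0.192), Plac8 (1.26, adjusted p 0.195) and Ms4a4c (1.29, adjusted p 0.128) were above 0 and not called. The call of Thbs1 (adjusted p 0.0419) held in 2 of 11 fits that each left out 1 retina, those without IL1A+TNF replicate 2 or 3, and was lost without any of the other 9 (0.0525 to 0.102, log2 differences 1.25 to 1.54).

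In Sarm1KO mice 5 of the 8 genes were higher with IL1A+TNF as well (43.5% of 20154 tested genes called, 21.3% called higher). Ccr2 had 12.2, 18.2, 1.78, 2.83, 3.24 and 1.96 CPM in Sarm1KO PBS replicates 1 to 6 and 24.6, 36.4, 34.1, 37.0, 25.6 and 31 CPM with IL1A+TNF. The groups did not overlap, and the log2 difference was 2.74 (SE 0.656, adjusted p 0.000434). Msr1 had 5.18, 5.18, 1.66, 1.79, 1.92 and 1.25 CPM with PBS and 8.83, 14.3, 19, 32.3, 33.4 and 8.90 CPM with IL1A+TNF, also without overlap, with a log2 difference of 2.74 (SE 0.401, adjusted p 2.17e-07). Itgal at 2.10, Chil3 at 2.65 and Thbs1 at 1.61 were the other genes called. Ly6c2 (1.08), Plac8 (0.63) and Ms4a4c (0.12) were not.

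These calls moved with the retinas that stood apart. Sarm1KO PBS replicate 2 had 1.58 CPM of Ly6c2, 7.07 of Plac8 and 3.90 of Ms4a4c, each the highest value of that gene in all 109 retinas. Its summed neutrophil markers were 147.8 CPM and those of replicate 1 were 156.5 CPM, where the other 4 retinas had 25.7 to 40.0 CPM. Summed microglial markers were 176.2 CPM in replicate 1 and 47.1 to 60.6 CPM in the rest of the group, replicate 2 included. Of these markers Olfml3 had a group mean of 35.3 CPM, against 18.4 CPM in WT PBS retinas of batch 2. The next most abundant, Cx3cr1, had 13.3 against 13.6 CPM. Without replicate 2, Ly6c2 was called (1.68, adjusted p 0.0326). Without both, 7 of the 8 genes were called (43.0% of tested genes called), with Ly6c2 at 2.23 (adjusted p 0.0116), Plac8 at 1.5 (adjusted p 0.0326) and Ms4a4c still not (1.03, adjusted p 0.129). Sarm1KO IL1A+TNF replicates 4 and 5 had summed neutrophil markers of 1284 and 1195 CPM and summed endothelial markers of 389 and 287 CPM, where the other 4 retinas had 146.9 to 519.6 CPM and 507 to 576 CPM. Their summed platelet markers were 32.5 and 33.3 CPM against 9.5 to 20.9 CPM in the other 4. Their summed erythrocyte markers were 99.0 and 50.4 CPM against 19.9 to 85.2 CPM. Summed microglial markers were 208.2 CPM in replicate 5 and 47.4 to 92.2 CPM in the rest of the group. Here Olfml3 had a group mean of 43.2 CPM and Cx3cr1, the next, 15.2 CPM. What single markers added to the sums of these retinas was not tested. Without replicates 4 and 5, 4 genes were called (12.6% of tested genes called), since Thbs1 stood at 0.87 with an adjusted p of 0.208. The part of the other cell types in these values was not tested.

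Sarm1KO and WT retinas were then compared directly, with batch 1 and batch 2 in 1 fit and batch as a term. With PBS, limma called 0 of the 8 genes (0.0397% of tested genes called), 1 had an unadjusted p under 0.05, and edgeR and DESeq2 called 0. With IL1A+TNF it called 0 of 8 (14.8% of tested genes called), 0 had an unadjusted p under 0.05, and edgeR and DESeq2 called 0. In that comparison the Ccr2 values of batch 2 did not overlap, with 24.6 to 37.0 CPM in Sarm1KO and 41.1 to 66.2 CPM in WT retinas, and the log2 difference was -0.65 (interval -1.58 to 0.272, adjusted p 0.382), or -0.73 (SE 0.286, adjusted p 0.233) within batch 2. The interaction of genotype and treatment gave 0 of 8 (8.75% of tested genes called), 1 gene with an unadjusted p under 0.05 (Ms4a4c), and 0 by edgeR and DESeq2. Its value for Ccr2 was -0.75 (interval -2.24 to 0.746) and for Msr1 -0.22 (interval -1.16 to 0.714). Without Sarm1KO IL1A+TNF replicates 4 and 5 the interaction called 0 genes of 20479 in the whole table, against 1763 with them.

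Among the 58 retinas of day 2 in batch 1, the genes that ran most like Ccr2 were H2-Aa (Pearson r 0.967 of log2 CPM), Cd74 (0.966), H2-Eb1 (0.964), Tgfbi (0.960), Sirpb1c (0.957), Ms4a6c (0.956), Lyz2 (0.954), Cybb (0.951), H2-Ab1 (0.944) and Itgax (0.944). H2-Aa, H2-Eb1, H2-Ab1 and Cd74 encode the class II antigen presentation proteins and their chaperone. These values pool the 4 treatments, so a shared response to treatment enters them, and they carry no test. The nearest genes to Itgal were Csf2rb (0.98), Itgam (0.974) and Syk (0.973). The nearest to Msr1 was Emilin2 (0.948), to Chil3 Tgfbi (0.942), to Ms4a4c Ccr2 itself (0.896), to Thbs1 Ezr (0.888), to Plac8 Tmem173 (0.848) and to Ly6c2 Plac8 (0.720). Among the 8 genes Itgal and Msr1 were closest at 0.926, and Ly6c2 and Thbs1 least close at 0.471.

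Within the 10 IL1A+TNF retinas, 7 relations with Ccr2 were computed with permutation tests. Chil3 had r 0.816 (permutation p 0.00653, adjusted p 0.0426) and rho 0.758 (permutation p 0.0151, adjusted p 0.106). Itgal (r 0.721), Ly6c2 (0.734) and Msr1 (0.775) had adjusted p 0.0426 as well, and none of the 7 passed by rho. Without replicates 2 and 5, the farthest from the Ccr2 median, r was 0.57 for Chil3, 0.31 for Itgal, -0.01 for Ly6c2 and 0.436 for Msr1. The relations were weaker without those 2 samples. They were chosen by Ccr2 itself, so leaving them out narrows its range and can lower r by design. How far the relations rest on them was not tested otherwise.

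The chemokines that draw monocytes and the receptors that answer them were followed as lists. The counts of this and the next lists stand beside 50.4% of all tested genes called with IL1A+TNF and 24.9% called higher, 21.4% and 12% with IL1A, and 0.655% called with TNF. Of 10 tested recruitment ligands 6 were higher with IL1A+TNF, 6 with IL1A and 1 with TNF, with a median log2 difference of 0.91 for IL1A+TNF against -0.02 over all genes. Csf1, a growth factor of macrophages, rose by 1.62 and Ccl3 by 2.16, while Cx3cl1, the most abundant at a mean of 85.0 CPM with PBS, stood at -0.04 and was not called. Of 8 receptors 6 were higher and 1 lower with IL1A+TNF, with Ccr1 at 2.80, Csf2rb at 2.75 and Csf1r at 1.24. With TNF 2 of the 8 receptors were higher, Csf1r (0.71, adjusted p 0.00355) among them. The decoy receptor Ackr1 fell by 0.13.

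Adhesion genes, the partners of Itgal among them, were higher in 12 of 12 with IL1A+TNF and in 12 of 12 with IL1A, and 1 passed with TNF. Their median with IL1A+TNF was 1.29. Itgb2, the chain that pairs with Itgal in LFA-1, rose by 2.58, P-selectin (Selp) by 2.94 and Itgax by 2.79. Itgax also passed with TNF (1.46, adjusted p 0.0125).

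Other genes of classical monocytes were higher in 20 of 21 with IL1A+TNF, in 19 with IL1A and in 1 with TNF, with a median of 2.03 for IL1A+TNF. Trem3 rose by 3.88, Lyz2 by 3.49 and Trem1 by 3.42, and the most abundant, fibronectin (Fn1), went from a mean of 117.4 CPM with PBS to 366.4 CPM and rose by 1.53. Of 6 genes of patrolling monocytes 4 were higher and 1 lower, with a median of 0.38. Treml4 rose most in that list, by 2.66.

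Genes of macrophage states were higher in 13 of 16 with IL1A+TNF and lower in 1, with a median of 1.15 and with Hmox1 at 4.05, Il1b at 2.82, Mmp12 at 2.25 and Spp1 at 2.04. Of 11 scavenger receptors besides Msr1, 8 were higher and 2 lower, with a median of 0.49, led by Olr1 at 3.29 and Cd68 at 2.06. With TNF 2 of these 11 were higher. Around Thbs1, 6 of 10 other thrombospondins and receptors were higher and 1 lower, with a median of 0.20 and with Itgb3 at 0.91 as the largest.

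Of 14 myeloid transcription factors 11 were higher with IL1A+TNF, 10 with IL1A and 1 with TNF, with a median of 0.82. Spi1, the gene of PU.1, rose by 2.45, Irf8 by 2.45, Cebpa by 2.03 and Runx1 by 1.76, and Cebpa was the 1 that passed with TNF (0.76, adjusted p 0.00593).

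Markers of other cells of the eye and blood were counted in the same IL1A+TNF comparison. There 50.4% of all tested genes were called, 24.9% higher and the rest of the 50.4% lower. Border-associated macrophages had 7 of 9 higher, with Stab1 as the most abundant and shared with the scavenger list. Homeostatic microglia had 3 of 10 higher and 4 lower, with Siglech, which fell by 2.72. Endothelium had 6 of 7 higher and 1 lower, dendritic cells 3 of 7 higher, platelets 2 of 5 higher and 2 lower, and Mueller glia 3 of 6 higher and 2 lower. Rods had 5 of 6 lower, pigment epithelium 5 of 6 lower, erythrocytes 0 of 5, B cells 1 of 4 higher and T cells 1 of 3 higher. Of 6 NK cell markers Eomes was the 1 tested and was lower (-0.25), while the other 5 had means of 0.0104 to 0.0363 CPM with PBS and 0.0175 to 0.106 CPM with IL1A+TNF, each higher with IL1A+TNF and untested. The same held for the 7 untested of 10 T cell markers, at 0.00506 to 0.0929 CPM with PBS and 0.0669 to 0.174 CPM with IL1A+TNF, and for the 2 untested of 6 B cell markers, Ms4a1 and Pax5. Of 5 eosinophil markers Siglecf was the 1 tested and was higher (4.20, adjusted p 4.34e-19), with Prg2, Ccr3 and Il5ra at means under 0.1 CPM and Epx at 0.111 CPM with PBS and 0.0896 CPM with IL1A+TNF. The share of the 8 genes' change that goes with any of these cells was not tested.

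Promoters are shown because several of the 8 genes and the transcription factors above moved together. RefSeq promoters of GRCm38.p6, 250 bases before to 50 after the start of transcription, matched 5 of the 8 genes (Ccr2, Ly6c2, Plac8, Ms4a4c and Chil3). Itgal, Msr1 and Thbs1 had no entry in the set of promoters used here. On both strands they were searched for GAGGAAGT (PU.1), TTGCNNAA (C/EBP), GGANTTTCC (NF-kB), TGANTCA (AP-1) and GAAANNGAA (interferon response), where N is any base. Among all 32807 promoters, 3.2% hold the PU.1 letters, 10.8% those of C/EBP, 1.3% those of NF-kB, 7.8% those of AP-1 and 8.6% those of the interferon response. The PU.1 letters occur 2 times in the Ly6c2 promoter. The interferon response letters occur once each in Ccr2 and Chil3, reversed, and those of C/EBP in 1 of 2 Plac8 promoters, reversed. No other match was found in the 5 genes. A match says only that the letters are there. The windows lie at chr9:124101933-124102232 on the plus strand for Ccr2, and on the minus strand at chr15:75111922-75112221 for Ly6c2, chr5:100563047-100563346 for Plac8 and chr3:106167515-106167814 for Chil3. Capitals mark the matched letters.
Ccr2: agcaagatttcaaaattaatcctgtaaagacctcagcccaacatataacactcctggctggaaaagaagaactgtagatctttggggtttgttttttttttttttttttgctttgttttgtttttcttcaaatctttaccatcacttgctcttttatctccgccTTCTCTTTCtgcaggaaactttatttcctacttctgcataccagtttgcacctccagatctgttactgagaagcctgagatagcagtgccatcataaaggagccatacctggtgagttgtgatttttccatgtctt
Ly6c2: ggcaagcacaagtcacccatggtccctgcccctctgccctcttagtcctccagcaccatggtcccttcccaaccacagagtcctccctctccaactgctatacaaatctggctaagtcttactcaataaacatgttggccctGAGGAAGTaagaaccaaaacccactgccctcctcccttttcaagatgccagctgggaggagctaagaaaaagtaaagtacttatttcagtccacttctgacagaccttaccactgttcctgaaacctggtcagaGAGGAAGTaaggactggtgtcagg
Plac8: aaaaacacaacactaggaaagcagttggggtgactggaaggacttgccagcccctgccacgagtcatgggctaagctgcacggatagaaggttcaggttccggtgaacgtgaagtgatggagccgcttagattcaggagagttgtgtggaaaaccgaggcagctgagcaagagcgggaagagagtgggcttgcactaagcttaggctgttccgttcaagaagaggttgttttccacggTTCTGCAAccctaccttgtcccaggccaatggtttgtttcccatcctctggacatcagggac
Chil3: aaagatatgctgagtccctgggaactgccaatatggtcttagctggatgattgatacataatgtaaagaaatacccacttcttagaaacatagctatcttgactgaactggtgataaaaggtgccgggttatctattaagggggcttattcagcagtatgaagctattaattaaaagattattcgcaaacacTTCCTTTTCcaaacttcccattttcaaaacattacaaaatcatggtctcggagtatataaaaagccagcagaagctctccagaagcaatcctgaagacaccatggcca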

How the data were processed

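The deposited table holds counts, whole numbers of read pairs per gene that the authors made without normalization. The submitters' processing notes name STAR 2.7.9a, Subread 2.0.1 with featureCounts, and the mm10 genome, from 150-base paired reads. Strandedness and the treatment of reads with several alignments are not given in the sources used here. The labels put all 109 retinas into 12 groups, and 0 other columns of samples were found. The 8 genes and all gene lists were chosen with earlier results of these data known, and some genes named with them are not reported here.

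Genes were kept by filterByExpr (at least 10 counts) and tested with limma 3.58.1 (voom, TMM factors from edgeR 4.0.16) in R 4.3.3, with sex as a term and the mouse as a random block through duplicateCorrelation. The fits of PBS days (44 retinas of 43 mice) and of fellow eyes had no block. The fits were run within day and batch, except that the Sarm1KO comparisons used all 81 day 2 retinas with batch as a term, the PBS days 44 retinas and the fellow eyes 23. Batch 2 was also fitted alone. Values of p were adjusted by Benjamini-Hochberg over all tested genes, and a gene was called at an adjusted p under 0.05. CPM divide a count by the library total, and intervals and levels cover no error beyond counting and replicates. The pairing of eyes was checked once: in 45 mice the median correlation between the eyes of a mouse was 0.0985, with 22 over 0.1, after group means were removed.

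Alternatives were edgeR, DESeq2 1.42.0, other filters and scalings, no sex term, no block, the mouse as a fixed block and batch 2 alone. The edgeR and DESeq2 fits had no mouse block, and the fixed block kept only mice with both eyes. Single retinas were also left out in turn: each treated retina for the comparisons with PBS of batch 1, and each retina of batch 2 for its comparisons. No PBS retina of batch 1 was left out singly. Those without TNF replicate 6 outside that round, without both eyes of its mouse, without Sarm1KO PBS replicates 1 and 2 and without Sarm1KO IL1A+TNF replicates 4 and 5 were chosen after seeing the data. Named genes are the 8, per list the 4 called genes with the largest change with IL1A+TNF and the most abundant, and the genes with the highest correlation with each of the 8. Correlations used log2 CPM with 2 added counts and 100000 permutations, two-sided. Sequences were read from the GENCODE M21 and RefSeq GRCm38.p6 tables. The text names only some genes of each list, and some genes stand in more than 1 list.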

Additional observations from a re-analysis of the deposited data

Results flagged for a closer look

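In 88 groups of 5 to 10 retinas, 1 for each gene and group, 21 held a retina whose distance to its nearest neighbour took an unusually large share of the group's range (Dixon's test at 95%). Chance alone marks about 1 in 20 groups. In all 21 the retina was the highest of its group.

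WT IL1A+TNF replicate 2 of day 2, batch 1 stood above the other 9 retinas for Ccr2 at 65.7 CPM (next value 41.7), Itgal at 19.7 CPM (next 12.9), Ly6c2 at 0.759 CPM (next 0.372), Plac8 at 5.07 CPM (next 1.63) and Msr1 at 31.2 CPM (next 18.2). Sarm1KO PBS replicate 2 stood above its group for Ly6c2 at 1.58 CPM (next 0.385), Plac8 at 7.07 CPM (next 1.16) and Ms4a4c at 3.90 CPM (next 1.18). Sarm1KO IL1A+TNF replicate 5 stood above its group for Plac8 at 6.21 CPM (next 2.51). WT PBS replicate 1 of batch 2 stood above its group for Plac8 at 0.982 CPM (next 0.444) and Ms4a4c at 0.824 CPM (next 0.309). WT IL1A replicate 1 of day 2 stood above its group for Chil3 at 9.91 CPM (next 4.40).

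At day 14, TNF replicate 4 was apart for Ccr2 at 1.73 CPM (next 0.702) and Ly6c2 at 0.0812 CPM, which is 3 counts. PBS replicate 7 was apart for Plac8 at 0.625 CPM (next 0.233), and PBS replicate 2 for Msr1 at 0.864 CPM (next 0.302).

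At day 35, PBS replicate 5 was apart for Ly6c2 at 0.0518 CPM (2 counts) and for Chil3 at 0.0259 CPM (1 count), with the rest of its group at 0. TNF replicate 7 was apart for Ms4a4c at 0.0830 CPM (3 counts), TNF replicate 6 for Chil3 at 0.165 CPM (6 counts) and TNF replicate 2 for Thbs1 at 10.5 CPM (next 7.08).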

How the results depend on the processing

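Apart from fits without TNF replicate 6 or another single retina, 141 counts of called genes stayed within 1.5 times their value under the alternatives and 11 moved, all at day 2. For TNF against PBS the count of 0 became 3 with edgeR, 2 with DESeq2, 1 with the mouse as a fixed block (Ccr2, 3.29, adjusted p 0.0390), 5 without TNF replicate 6 and 5 without both eyes of its mouse. For IL1A against PBS the count of 7 became 4 with the mouse as a fixed block, which uses 23 PBS and 7 IL1A retinas, and Plac8, Ms4a4c and Thbs1 were lost. The 8 calls of IL1A+TNF became 6 there, with 8 IL1A+TNF retinas, and Ly6c2 and Plac8 were lost. For IL1A against TNF the count of 2 became 1 with edgeR, 1 with DESeq2, 1 without TNF replicate 6 and 1 without both eyes of its mouse, where Msr1 was lost. For the interaction of IL1A and TNF the count of 0 became 1 with edgeR, 1 with DESeq2, 3 without TNF replicate 6 and 3 without both eyes of its mouse. These last 2 results without replicate 6, and all without both eyes, were added after seeing the data. The edgeR and DESeq2 fits also dropped the mouse block, so the test and the block changed together. The cause of these moves was not tested, and the fixed block was not run for batch 2 or between treatments.

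Of the relations of Ccr2 across IL1A+TNF retinas, 4 passed and 3 did so with 0.5 added counts, where Ly6c2 was lost (r 0.716, adjusted p 0.0535).

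Without 1 treated retina at a time (10, 9 and 8 refits), the counts ranged from 7 to 8 for IL1A+TNF, 6 to 7 for IL1A and 0 to 5 for TNF, and no PBS retina of batch 1 was left out singly. Without 1 retina of either arm in batch 2 they ranged from 4 to 5 for IL1A+TNF in WT of batch 2, 5 to 6 in Sarm1KO and 0 to 0 for the other 3 Sarm1KO comparisons.

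Of the fitted differences of called genes, 367 stayed called and 22 were no longer called with the same sign. None turned sign. Of the 22, Ly6c2 with IL1A+TNF and Thbs1 with IL1A made up 5 each. Removing the random block of mice changed the call of Ly6c2 with IL1A+TNF (adjusted p 0.0506) and no other call at day 2 against PBS.

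Depth limits Ly6c2, Plac8, Ms4a4c and Chil3 at days 14 and 35, where most retinas have few counts or 0. Both eyes were sequenced in 45 of 64 mice, and the other retinas entered unpaired. Group sizes of 5 and 6 in batch 2 leave wide intervals. Where reads that Ly6c2 shares with Ly6c1 were counted is not known.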
